A study of Mus musculus with 6 samples.

Results

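The genes described here are 10 regulators of the G1 phase of the cell cycle, measured in CD4+ T cells of the mouse spleen that were given MAPK13-inhibitors or DMSO. They comprise the D cyclins *Ccnd1*, *Ccnd2* and *Ccnd3*, the E cyclins *Ccne1* and *Ccne2*, the cyclin-dependent kinases *Cdk4* and *Cdk6*, and the CDK inhibitors *Cdkn1a* (p21), *Cdkn1b* (p27) and *Cdkn2c* (p18). They were chosen by symbol, and all 10 were found among the 35602 genes of the count table and among the 34714 genes of the tables for the replicate 1 pair. The study asked how inhibiting the kinase MAPK13 changes gene expression in CD4+ T cells after stimulation through CD3 and CD28.

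D cyclins are made when a T cell receives antigen receptor, costimulatory and interleukin-2 signals, and they bind and activate CDK4 and CDK6. These kinases phosphorylate the retinoblastoma protein and its relatives, which releases E2F factors that drive the genes of S phase, *Ccne1* and *Ccne2* among them, and cyclin E with CDK2 then completes the step into S phase. INK4 proteins such as p18 block CDK4 and CDK6 alone, whereas the CIP/KIP proteins p21 and p27 block CDK2 complexes and also bind cyclin D complexes, and p27 is a known brake on resting T cells.

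RNA was sequenced from 6 libraries, 3 per group. Both groups were splenic CD4+ cells, isolated with a kit, held in serum-containing medium and stimulated with antibodies to CD3 and CD28 for 72 h. The labels give the WT genotype for replicates 2 and 3, and the study's methods name C57BL/6J mice without an age for these cells. The treated group received MAPK13-IN-1, at 17.1 µM in the labels of replicates 2 and 3, and the control group received the solvent DMSO. For replicates 2 and 3 the labels place the addition of inhibitor or DMSO after day 1, whereas the design text has the agent present during the 72 h of stimulation. Libraries of replicates 2 and 3 were made from poly-T selected RNA and read as DNA nanoballs, and a kit for stranded mRNA and a DNBSEQ-T7 instrument served for the replicate 1 pair. Nothing in the sources used here says that the libraries came from separate animals or cultures, so the p-values measure the spread between these samples, which may be technical.

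The count libraries of replicates 2 and 3 held 26874805 and 28487403 counts with DMSO and 33854760 and 32617702 counts with MAPK13-inhibitors. Their values are given as CPM (counts scaled to a common library size) after TMM normalization, replicate 2 before replicate 3. The replicate 1 pair is given in FPKM, a unit inferred from the values, with depth unknown, and it has 1 library per group and no test.

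CD4 T cell genes were abundant in every library, and B cell genes were abundant in the count libraries as well. The 11 listed CD4 T cell markers, of which *Cd5* was the most abundant with DMSO and *Cd4* with MAPK13-inhibitors, summed to 2172 and 2216 CPM with DMSO and to 1256 and 1388 CPM with MAPK13-inhibitors. The 12 listed B cell markers, of which *Pax5* was the most abundant with MAPK13-inhibitors, summed to 1177 and 1151 CPM with DMSO and to 1373 and 1398 CPM with MAPK13-inhibitors. So the label of CD4+ T cells describes only some of the RNA in these 4 libraries. For the replicate 1 pair the same lists summed to 1460 FPKM (DMSO) and 1479 FPKM (MAPK13-inhibitors) for CD4 T cell markers, and to 54.6 and 38.6 FPKM for B cell markers. Of the CD4 T cell markers tested 8 of 11 were lower and 1 was higher at an edgeR adjusted p-value under 0.05, beside 32.3% lower and 31.5% higher of all 16269 genes tested, and *Cd4* was at a mean of 275 CPM in both groups. Of the B cell markers tested 8 of 12 were higher and 2 were lower, beside the same shares. Both lists gave the same number of lower genes under scaling by library totals, and the CD4 T cell list then gave 2 higher, beside 4302 lower and 6176 higher of all genes.

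Myeloid and erythroid markers were scarce, and their summed levels were higher with MAPK13-inhibitors. The 14 myeloid markers, led by *Cd68*, summed to 17.7 and 17.0 CPM with DMSO and to 55.1 and 47.8 CPM with MAPK13-inhibitors, and 8 of the 10 tested were higher and 0 lower at an edgeR adjusted p-value under 0.05, where 31.5% of all genes were higher and 32.3% lower, the shares for the lists that follow too. *S100a8*, *S100a9* and *Elane* had 0 to 3 counts in every count library. The 10 erythroid markers, led by *Epor* with DMSO and by *Hbb-bs* with MAPK13-inhibitors, summed to 10.5 and 10.3 CPM with DMSO and to 91.6 and 66.7 CPM with MAPK13-inhibitors, and 6 of the 8 tested were higher and 1, *Epor*, was lower (0 lower under library totals). *Cd4* and *Epor* were named after their values were seen. *Slc4a1* and *Ahsp* had 0 to 3 counts with DMSO. The 8 CD8 T and NK cell markers, led by *Cd8b1*, summed to 15.4 and 15.1 CPM against 11.0 and 13.0 CPM, with 2 of 5 tested lower and 1 higher, and *Klra8* had 0 counts in every library. In the replicate 1 pair the sums went from 4.91 to 15.7 FPKM for myeloid, from 1.01 to 2.04 FPKM for erythroid and from 4.78 to 14.5 FPKM for CD8 T and NK cell markers. The part of these cells in the results below was not tested, and in bulk RNA fewer cells of a type and less RNA per cell cannot be told apart.

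With MAPK13-inhibitors 6 of the 10 genes were lower, 2 were higher and 2 did not pass the test in the count libraries. *Ccne1*, *Cdk4*, *Cdkn2c*, *Ccnd2*, *Cdk6* and *Ccnd3* were lower, in order of the size of the change. *Ccnd1* and *Cdkn1b* were higher, and *Ccne2* and *Cdkn1a* were not called. All 10 passed the filter on low counts. These 8 calls were made by edgeR's quasi-likelihood test at an adjusted p-value under 0.05, which called 63.8% of the 16269 genes tested. Of all genes tested 32.3% were lower, against 6 of 10 here, and 31.5% were higher, against 2 of 10 here. A change of more than 1 log2 unit with a call was found for 4 of the 10 (*Ccnd1*, *Ccne1*, *Cdk4* and *Cdkn2c*) and for 23.4% of all genes, and under library totals *Cdkn2c* was at −0.92 and outside that count. The median log2 fold change was −0.26 over the 10 genes and 0.01 over all genes tested. Under library totals 4302 of the 16269 genes were lower and 6176 higher, beside 5 and 2 of the 10. This scaling in place of TMM moved the log2 fold changes of all genes by a median of 0.13, ended the call of *Ccnd3* and turned the sign of *Ccne2*, and left the direction of the other 8 genes as it was.

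**Figure D1:**
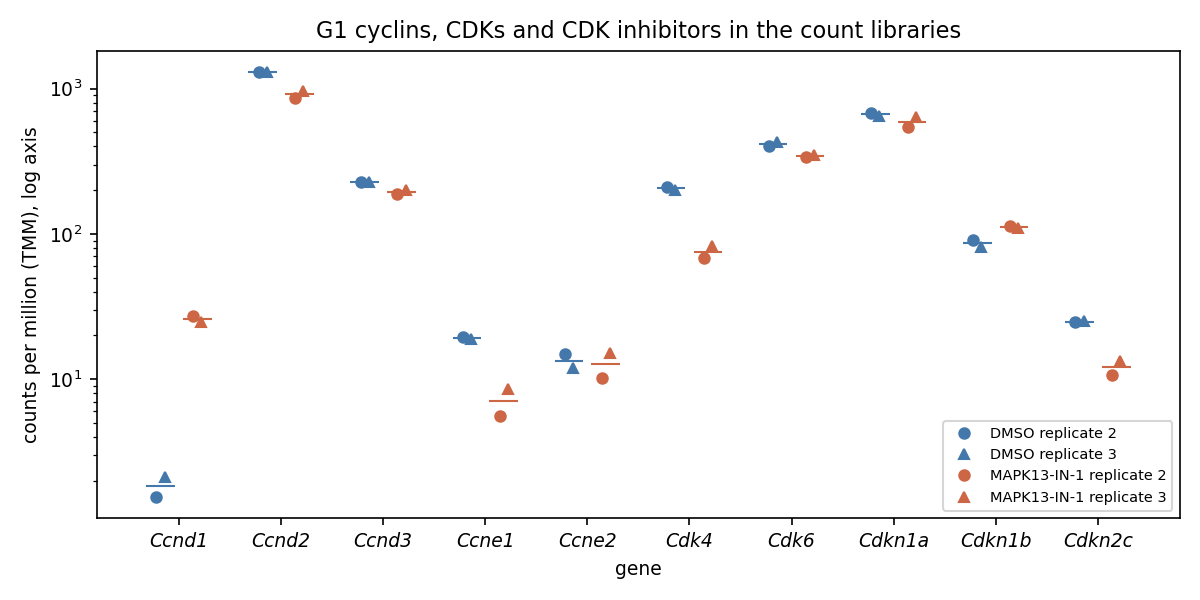
CPM after TMM normalization (log axis) of each of the 10 genes in the 4 count libraries, with a bar at the mean of each group (n = 2). The DMSO and MAPK13-IN-1 points overlap for Ccne2, and Ccnd1 moves from 1.84 to 26.0 CPM on average.

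The D cyclins differed among themselves in level and in direction. *Ccnd2*, the D cyclin most abundant in these cells (chr6:127125162-127152193 of GRCm38, minus strand), was at 1293 and 1303 CPM with DMSO and at 859 and 969 CPM with MAPK13-inhibitors. Both treated libraries were below both DMSO libraries, and the DMSO libraries lay close together. On average it fell to 914 ± 77.8 from 1298 ± 6.59 CPM (SD, n = 2), and its log2 fold change was −0.51 with a standard error of 0.0587 (edgeR adjusted p = 3.26e-05). The replicate 1 pair went in the opposite direction, with 116 FPKM for DMSO and 200.4 FPKM for MAPK13-inhibitors.

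*Ccnd3*, which also activates CDK4 and CDK6 and serves lymphocyte expansion (chr17:47505051-47599691, plus strand), was at 229 and 227 CPM with DMSO and at 187 and 200.2 CPM with MAPK13-inhibitors. The groups did not overlap, but the gap was small. The log2 fold change was −0.23 with a standard error of 0.0572 (edgeR adjusted p = 0.00462), and −0.11 under library totals (edgeR adjusted p = 0.115). *Ccnd3* read 81.5 FPKM and 91.4 FPKM in the replicate 1 pair, again higher with MAPK13-inhibitors. *Ccnd3* shares 361 exon bases with *Bysl* on the other strand, which fell (log2 fold change −1.88, standard error 0.107), and a processed pseudogene named for *Ccnd3* is annotated, so its counts are uncertain to that extent. The shared part is 4.11% of its exon bases. Annotated genes on the other strand also share exon bases with *Cdkn1a* (7.68%), *Ccnd2* (3.95% and 3.91%) and *Cdk6* (2.63%).

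*Ccnd1*, the D cyclin of many non-lymphoid cells (chr7:144929931-144939925, minus strand), rested on 40 and 58 counts with DMSO and on 967 and 839 counts with MAPK13-inhibitors. These are 1.55 and 2.13 CPM against 27.2 and 24.8 CPM. Every treated library stood far above every DMSO library, at 14 times the fitted DMSO level. The log2 fold change was 3.81 with a standard error of 0.159 (edgeR adjusted p = 4.18e-08), and it stayed between 3.59 and 4.06 when single libraries were dropped. The replicate 1 pair went in the same direction from a level near 0, with 0.205 FPKM for DMSO and 1.72 FPKM for MAPK13-inhibitors. *Ccnd1* shares 1100 bases, 23.4% of its exon bases, with *LTO1* on the other strand, and use of strand in the counting is not given in the sources used here, so reads of the pair cannot be told apart there. *LTO1* had 445 and 458 counts with DMSO and 1072 and 1079 counts with MAPK13-inhibitors, a log2 fold change of 0.86 with a standard error of 0.0927. *Ccnd1* rose in the libraries in which myeloid and erythroid markers were also higher. *Cd68* went from 9.89 to 26.8 CPM on average and *Hbb-bs* from 1.85 to 25.7 CPM, and their part in the rise of *Ccnd1* was not tested.

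Per length, *Ccnd2* made up most of the D cyclin RNA in every library. For the count libraries the length is that of all annotated exons of a gene joined, so shares and orders between genes depend on it. In CPM per kb of exon it was 83.9% and 84.0% of the summed D cyclins with DMSO and 77.1% and 78.6% with MAPK13-inhibitors. *Ccnd1* went from 0.201% and 0.275% of that sum to 4.89% and 4.01%. The summed level itself was 164 and 165 CPM per kb with DMSO and 118 and 131 CPM per kb with MAPK13-inhibitors, so the gain of *Ccnd1* was smaller than the loss of *Ccnd2*. *Ccnd2* in the replicate 1 pair held 58.8% of 198 FPKM with DMSO and 68.3% of 293 FPKM with MAPK13-inhibitors, and *Ccnd3* held 41.1% and 31.1%.

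The E cyclins, the partners of CDK2, did not move together. *Ccne1* (chr7:38097984-38107534, minus strand) was at 19.5 and 18.9 CPM with DMSO and at 5.55 and 8.50 CPM with MAPK13-inhibitors. All treated libraries were well below the DMSO libraries, and replicate 2 was the lower of them. On average it fell to 7.03 ± 2.09 from 19.2 ± 0.403 CPM (SD, n = 2), to 0.365 of the fitted DMSO level, and its log2 fold change was −1.45 with a standard error of 0.171 (edgeR adjusted p = 3.50e-05). It was −1.80 without MAPK13-inhibitors replicate 3 and −1.18 without replicate 2 of that group. *Ccne1* also read lower in the replicate 1 pair, with 19.0 FPKM with DMSO and 14.2 FPKM with MAPK13-inhibitors.

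*Ccne2*, the second E cyclin (chr4:11191351-11204779, plus strand), was at 14.8 and 11.9 CPM with DMSO and at 10.2 and 15.1 CPM with MAPK13-inhibitors. These values overlapped, with the lowest and the highest both in the treated group. The log2 fold change was −0.08 with a standard error of 0.181 (edgeR adjusted p = 0.720), a difference smaller than the spread between replicates. *Ccne2* was not called under any of the 7 alternative fits. It was −0.40 without MAPK13-inhibitors replicate 3, 0.18 without replicate 2 of that group and 0.07 without DMSO replicate 2. Those fits leave 1 library in a group, whose spread they cannot measure. *Ccne2* shares 609 bases with *Ints8* on the other strand, 17.4% of its exon bases, and the log2 fold change of *Ints8* was 0.06 (edgeR adjusted p = 0.527). *Ccne2* read 6.0 FPKM and 5.10 FPKM in the replicate 1 pair.

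The G1 kinases were both lower, by unequal amounts. *Cdk4* (chr10:127063534-127067920, plus strand) was at 210.2 and 201 CPM with DMSO and at 68.0 and 82.3 CPM with MAPK13-inhibitors. The treated libraries were far below the DMSO libraries, with no overlap. Mean expression fell to 75.1 ± 10.1 from 206 ± 6.43 CPM (SD, n = 2), and its log2 fold change was −1.45 with a standard error of 0.0844 (edgeR adjusted p = 3.06e-07). *Cdk4* was also lower in the replicate 1 pair, which had 149 FPKM for DMSO and 96.3 FPKM for MAPK13-inhibitors. It shares 641 bases, 19.7% of its exon bases, with *Tspan31* on the other strand, which rose (log2 fold change 0.42, standard error 0.0759).

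*Cdk6*, the kinase that shares the D cyclins with *Cdk4* (chr5:3341485-3531008, plus strand), was at 405 and 429 CPM with DMSO and at 336 and 347 CPM with MAPK13-inhibitors. The treated libraries were again lower without overlap, by a smaller margin. The log2 fold change was −0.29 with a standard error of 0.0537 (edgeR adjusted p = 0.000859), or −0.16 under library totals (edgeR adjusted p = 0.0187). The replicate 1 pair had 30.8 FPKM with DMSO and 24.4 FPKM with MAPK13-inhibitors. For comparison, the 12 housekeeping genes listed had a median log2 fold change of −0.18 (7 lower and 0 higher), or −0.06 under library totals (5 lower and 2 higher).

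The balance of the kinases shifted per length. *Cdk4* held 69.1% and 66.8% of the summed *Cdk4* and *Cdk6* level in CPM per kb with DMSO, and 46.5% and 50.5% with MAPK13-inhibitors. The sum of both was 93.6 and 92.6 CPM per kb with DMSO and 45 and 50.2 CPM per kb with MAPK13-inhibitors. Within the replicate 1 pair *Cdk4* held 82.9% and 79.8% of 179.9 and 121 FPKM, so its share changed far less there.

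Promoter sequences are shown for these kinases as a description. RefSeq promoters of GRCm38.p6, 250 bases before to 50 after a gene's start, were matched by symbol for 7 of the 10 genes (*Ccnd3*, *Ccne1*, *Cdk4*, *Cdk6*, *Cdkn1a*, *Cdkn1b* and *Cdkn2c*), and *Ccnd1*, *Ccnd2* and *Ccne2* had no match. The start is that of the RefSeq entry: the *Cdk4* window lies at the start of the gene's coordinates given above, whereas the *Cdk6* window lies inside its gene, so these windows are not at like positions. They were searched on both strands for E-box letters (CACGTG), bound by Myc and related factors. The bases before the start of *Cdk4* (chr10:127063285-127063534, plus strand) hold 4 of them, and the first 80 bases of the *Cdk6* window (chr5:3343643-3343722, plus strand) hold 1, in capitals here:
Cdk4: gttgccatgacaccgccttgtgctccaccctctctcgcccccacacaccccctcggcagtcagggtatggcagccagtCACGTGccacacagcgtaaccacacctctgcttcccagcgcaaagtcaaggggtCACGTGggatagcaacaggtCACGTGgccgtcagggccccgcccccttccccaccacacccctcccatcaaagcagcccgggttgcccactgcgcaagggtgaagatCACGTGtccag
Cdk6: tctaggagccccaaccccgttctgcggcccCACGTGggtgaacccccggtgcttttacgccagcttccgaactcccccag

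At least 1 such E-box is present in 7.15% of the 32851 promoters in the table, and 4 or more in 8 of them. In *Cdk4* the matches start 172, 118, 98 and 11 bases before the gene's start. In *Cdk6* the match starts 220 bases before that entry's start. The rest of each of these windows was searched too and holds no further E-box. A *Cdkn2c* window inside the gene (chr4:109665323-109665622, minus strand) holds an E-box 34 bases after that entry's start, and the window nearer the gene's start holds none. The windows of *Ccnd3*, *Ccne1*, *Cdkn1a* and *Cdkn1b* hold no E-box. The E2F letters TTTGGCGC, TTTCCCGC and TTTCGCGC, any of which is in 1.84% of promoters, were in no window of these genes. The TCF/LEF letters CTTTGAT, in 3.73% of promoters, match the minus strand of the *Cdk4* window once, 52 bases before the start, and CTTTGAA, in 5.14%, matches none. The forkhead letters TGTTTAC, in 3.65% of promoters, match 1 window of *Ccnd3*, 243 bases before its start. These are matches of letters only, and their part in the changes of the genes was not tested.

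The CDK inhibitors went in different directions. *Cdkn2c*, the INK4 member (chr4:109660876-109667189, minus strand), was at 24.7 and 25.1 CPM with DMSO and at 10.7 and 13.4 CPM with MAPK13-inhibitors. Both treated libraries were below the DMSO libraries, without overlap. The log2 fold change was −1.05 with a standard error of 0.121 (edgeR adjusted p = 3.21e-05), to 0.484 of the fitted DMSO level. *Cdkn2c* fell in the replicate 1 pair too, from 25.8 to 15.3 FPKM.

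*Cdkn1b*, which encodes p27 (chr6:134920401-134925513, plus strand), was at 90.6 and 81.5 CPM with DMSO and at 114 and 109 CPM with MAPK13-inhibitors. Here the treated libraries were the higher ones, without overlap. Mean expression rose to 112 ± 4.05 from 86.1 ± 6.44 CPM (SD, n = 2), and its log2 fold change was 0.37 with a standard error of 0.0702 (edgeR adjusted p = 0.000893). The replicate 1 pair was nearly level, with 24.3 and 25.4 FPKM.

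*Cdkn1a*, which encodes p21 and is a target gene of p53 (chr17:29090976-29100727, plus strand), was at 679 and 653 CPM with DMSO and at 541 and 642 CPM with MAPK13-inhibitors. The treated libraries were lower, but replicate 3 came close to the DMSO libraries. The log2 fold change was −0.17 with a standard error of 0.0725 (edgeR adjusted p = 0.0602), and it did not pass. It passed with no filter on low counts (−0.17, edgeR adjusted p = 0.0142) and with the replicate block (−0.18, edgeR adjusted p = 0.00417). Under library totals it was −0.05 (edgeR adjusted p = 0.578). The value was −0.31 without MAPK13-inhibitors replicate 3, −0.05 without replicate 2 of that group and −0.21 without DMSO replicate 3. Those fits leave 1 library in a group, whose spread they cannot measure. *Cdkn1a* went the other way in the replicate 1 pair, from 117 FPKM with DMSO to 358 FPKM with MAPK13-inhibitors, 3.06 times as much.

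The other genes regulated by p53 were mixed in the count libraries and mostly above 0 in the replicate 1 pair. Of the 19 listed, 9 were lower and 8 higher in the count libraries (edgeR adjusted p-value under 0.05), beside 32.3% and 31.5% of all genes tested, and the median log2 fold change was 0.03 beside 0.01 for all genes. Under library totals 7 were lower and 9 higher, beside 4302 and 6176 of all 16269 genes. In the replicate 1 pair 18 of the 19 were above a log2 ratio of 0, and 9 were above 1 on the log2(FPKM + 1) scale. Among all 11510 genes with at least 1 FPKM in either library of that pair, 6500 were above 0 and 7.12% were above 1. *Perp*, a p53 target of cell adhesion, rose in both, by 2.02 on the log2 scale (standard error 0.0842) in the counts and from 1.17 to 20 FPKM. *Sesn1*, a stress-induced p53 target, had 1.37 (standard error 0.0875) and went from 5.26 to 9.88 FPKM. *Bbc3*, which encodes the death protein PUMA, had −1.19 (standard error 0.0669) but went from 38.2 to 47.1 FPKM. *Mdm2*, the ligase of p53, and *Pmaip1*, the death protein NOXA, were chosen after their values were seen. *Mdm2* had a log2 fold change of 0.37 (standard error 0.0639) beside 34.5 and 117 FPKM, and *Pmaip1* 0.70 (standard error 0.0750) beside 9.04 and 82.0 FPKM.

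**Figure D2:**
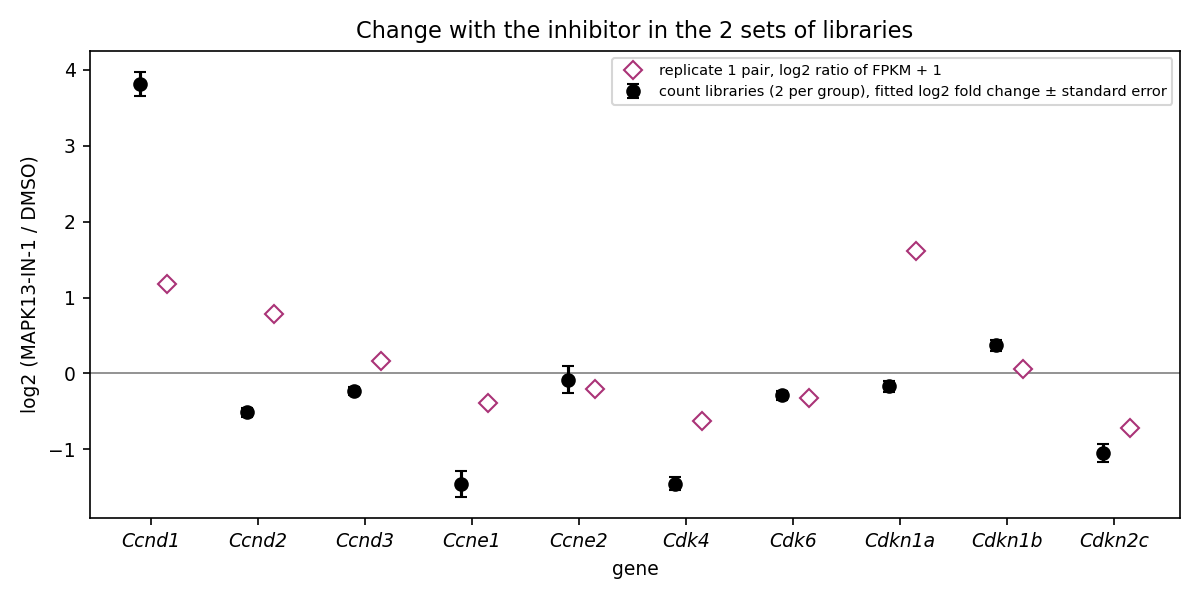
Log2 of MAPK13-IN-1 over DMSO for each of the 10 genes: filled points are edgeR log2 fold changes of the count libraries (n = 2 per group) with standard errors, and open diamonds are log2 ratios of FPKM + 1 in the replicate 1 pair (n = 1 per group). Ccnd2, Ccnd3 and Cdkn1a lie below 0 in the counts and above 0 in the pair, and Ccnd3 is not called and Ccne2 is above 0 under library totals.

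Across the 10 genes, 7 had the same sign in the count libraries and in the replicate 1 pair. With a pseudocount of 1 the log2 ratios of the pair were 1.61 for *Cdkn1a*, 1.18 for *Ccnd1* and 0.78 for *Ccnd2* at the upper end. At the lower end they were −0.72 for *Cdkn2c*, −0.63 for *Cdk4* and −0.39 for *Ccne1*. *Cdkn1a* and *Ccnd1* were above 1, beside 7.12% of the 11510 genes, and 0 of the 10 were below −1, beside 1.91%. Adding 1 compresses the change of *Ccnd1*, which had only 0.205 and 1.72 FPKM, and its ratio was 2.58 with a pseudocount of 0.1. The median ratio was −0.07 for the 10 genes and 0.08 for all 11510.

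*Cdkn1a* and *Ccnd2* had the highest levels per length in both groups of count libraries, and the order below them differed between the groups. With DMSO the means were 187 ± 5.09 CPM per kb for *Cdkn1a*, 138 ± 0.701 for *Ccnd2*, 63.3 ± 1.98 for *Cdk4*, 29.8 ± 1.22 for *Cdk6*, 25.9 ± 0.176 for *Ccnd3* and 18.9 ± 1.41 for *Cdkn1b* (SD, n = 2). Below them came *Cdkn2c* at 9.27 ± 0.108, *Ccne1* at 7.22 ± 0.151, *Ccne2* at 3.82 ± 0.579 and *Ccnd1* at 0.391 ± 0.0873 CPM per kb. Each of these steps was larger than the spread of the neighbours. With MAPK13-inhibitors *Cdkn1a* (166 ± 20 CPM per kb) and *Ccnd2* (97.2 ± 8.26) stayed at the top. *Cdkn1b* (24.5 ± 0.891), *Cdk6* (24.4 ± 0.551), *Cdk4* (23.1 ± 3.10) and *Ccnd3* (22.1 ± 1.06) followed, and *Cdk4* lay within its spread of the other 3. *Ccnd1* (5.52 ± 0.373) then stood above *Cdkn2c* (4.49 ± 0.716), *Ccne2* (3.62 ± 0.999) and *Ccne1* (2.64 ± 0.783), with the E cyclins in the reverse of their DMSO order and *Ccne2* within its spread of *Cdkn2c* and *Ccne1*. In the replicate 1 pair *Cdk4* led with DMSO at 149 FPKM, ahead of *Cdkn1a* at 117 and *Ccnd2* at 116 FPKM, and *Cdkn1a* led with MAPK13-inhibitors at 358 FPKM.

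Ratios within a library do not depend on scaling, and 8 of them were set between members, on levels per length, and are given as values with no test. The log2 ratio of *Ccnd1* over *Ccnd3* was −6.31 and −5.83 with DMSO and −1.88 and −2.12 with MAPK13-inhibitors. *Ccnd2* over *Ccnd3* went from 2.40 and 2.42 to 2.1 and 2.17. Both ratios were apart between the groups, upward for *Ccnd1* and downward for *Ccnd2*. The log2 ratio of *Cdk6* over *Cdk4* was −1.16 and −1.01 with DMSO and 0.20 and −0.03 with MAPK13-inhibitors. *Ccne2* over *Ccne1* was −0.79 and −1.06 and then 0.48 and 0.44. So on these lengths *Cdk6* came near the level of *Cdk4* in the count libraries, and *Ccne2* went from below *Ccne1* to above it. Which gene of a ratio stands higher depends on the exon lengths used, whereas the change between the groups in these ratios does not. Neither order was seen in the replicate 1 pair, with −2.28 and −1.98 for *Cdk6* over *Cdk4* and −1.66 and −1.48 for *Ccne2* over *Ccne1*. The lengths behind its FPKM are not known, and its ratios were already lower than those of the count libraries with DMSO.

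For the inhibitors, the log2 ratio of *Cdkn2c* over *Cdkn1b* was −1.11 and −0.94 with DMSO and −2.66 and −2.26 with MAPK13-inhibitors. *Cdkn1a* over *Cdkn1b* went from 3.26 and 3.36 to 2.60 and 2.92. The summed D cyclins over *Cdkn1b* went from 3.04 and 3.20 to 2.24 and 2.46. All of these moved toward *Cdkn1b*. The exception was *Cdkn2c* over the sum of *Cdk4* and *Cdk6*, its targets, which was −3.35 and −3.31 with DMSO and −3.50 and −3.33 with MAPK13-inhibitors, overlapping values whose mean difference was −0.08. In the replicate 1 pair the difference was in the same direction for *Ccnd1* over *Ccnd3* (2.91), *Cdk6* over *Cdk4* (0.29), *Ccne2* over *Ccne1* (0.18), *Cdkn2c* over *Cdkn1b* (−0.81) and *Cdkn2c* over the kinases (−0.18). It was opposite for *Ccnd2* over *Ccnd3* (0.62), *Cdkn1a* over *Cdkn1b* (1.55) and the summed D cyclins over *Cdkn1b* (0.51).

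**Figure D3:**
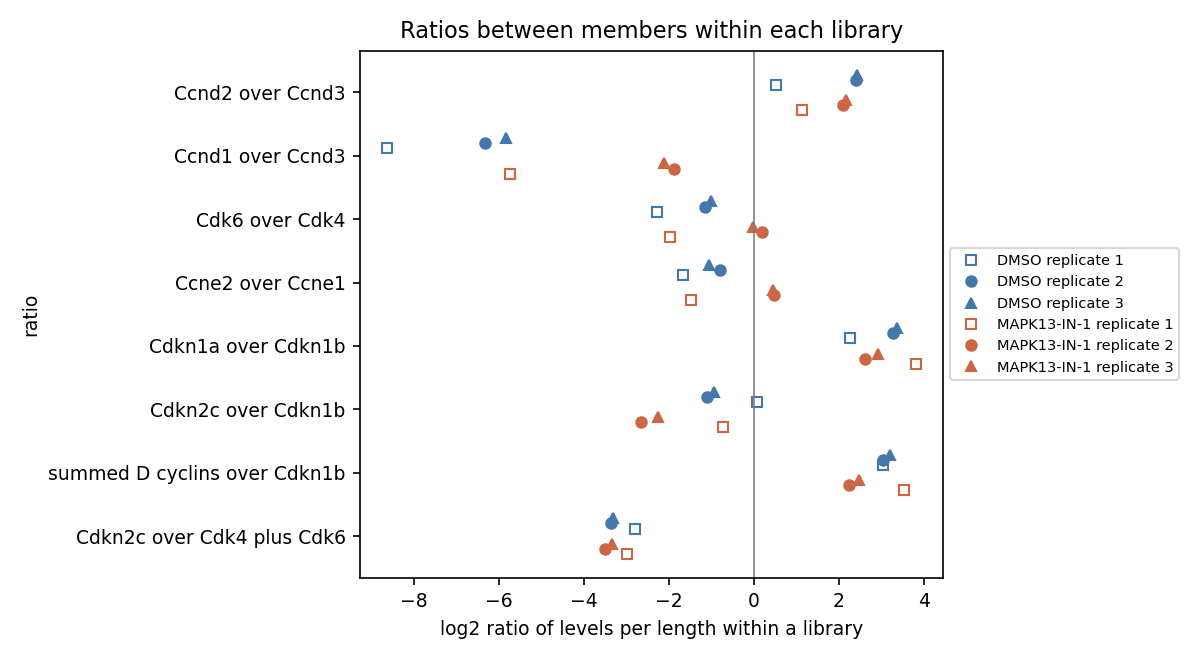
Log2 ratios between members within each library, on levels per length (CPM per kb of exon for replicates 2 and 3, filled; FPKM for replicate 1, open). Points of replicates 2 and 3 are apart between DMSO and MAPK13-IN-1 for 7 of the 8 ratios and overlap for Cdkn2c over the sum of Cdk4 and Cdk6.

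Genes around these regulators were listed in 9 groups, and 113 of the 115 were tested. Of these 63 (55.8%) were lower and 27 (23.9%) higher, beside 32.3% and 31.5% of all genes tested, with a median log2 fold change of −0.35. Under library totals 54 were lower and 33 higher, beside 4302 and 6176 of all 16269 genes. In the replicate 1 pair 63 of 111 were below 0 and 48 above, beside 5010 and 6500 of all 11510. The downstream genes mostly fell with *Ccne1* and *Cdk4*. Of the 20 E2F target genes of S phase entry 17 were lower and 0 higher (15 and 0 under library totals), with a median of −0.64, and all 20 were below 0 in the replicate 1 pair. *Pcna*, the sliding clamp, was at 369 and 351 CPM with DMSO and 154 and 196 CPM with MAPK13-inhibitors (−1.04, standard error 0.0934). *Mcm2*, a helicase subunit, had −1.07 (standard error 0.110), and *Rrm2*, a subunit of ribonucleotide reductase, had −1.30 (standard error 0.134). Replicate 2 was the lowest library for each of the 3, as for *Ccne1* and *Cdk4*.

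Of the 7 tested genes of CDK2, CDK1 and their S and M phase cyclins 6 were lower and 0 higher, also under library totals, with a median of −0.75, and 6 of 6 were below 0 in the replicate 1 pair. *Cdk2*, the partner of the E cyclins, had a log2 fold change of −0.65 (standard error 0.0762). *Ccna2* had −1.03 (standard error 0.123) and *Ccnb1* −1.18 (standard error 0.155), the cyclins of S phase and of mitosis. Among the 13 pocket proteins, E2F and DP factors 8 were lower and 2 higher (8 and 3 under library totals), and 10 of 13 were below 0 in the replicate 1 pair. *E2f4*, a repressor E2F, fell by 1.18 on the log2 scale (standard error 0.0640), *Tfdp2*, a partner of E2F, by 0.81 (standard error 0.0884) and *Rb1*, the target of CDK4 and CDK6, by 0.79 (standard error 0.0720). Of 8 genes of CDK activation and dephosphorylation 4 were lower and 0 higher under both scalings, and 8 of 8 were below 0 in the replicate 1 pair. These lists stand beside 32.3% lower and 31.5% higher of all genes tested (4302 and 6176 of 16269 under library totals). In the pair 5010 of all 11510 genes were below 0. *Pkmyt1*, an inhibitory kinase of CDK1, had −1.70 (standard error 0.108), *Cdc25b*, an activating phosphatase, −0.94 (standard error 0.130) and *Ccnh*, a cyclin of the CDK-activating kinase, −0.53 (standard error 0.0907).

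The 5 other CDK inhibitors had 3 genes lower and 1 higher (2 and 1 under library totals), and of the 4 in the replicate 1 pair 2 were below 0 and 2 above. All genes tested had 32.3% lower and 31.5% higher (4302 and 6176 of 16269 under library totals). *Cdkn3*, a phosphatase of CDK2 that peaks in mitosis, was at 5.24 and 4.16 CPM with DMSO and 0.789 and 1.24 CPM with MAPK13-inhibitors (−2.21, standard error 0.267). *Cdkn2d*, the other INK4 gene expressed well here, had −0.21 (standard error 0.0801, edgeR adjusted p = 0.0439) and at −0.08 to −0.21 lost its call under 6 of the 7 alternative fits (the replicate block kept it) and, at −0.14 to −0.25, without DMSO replicate 2, DMSO replicate 3 or MAPK13-inhibitors replicate 2. *Cdkn1c* (−1.02), *Cdkn2b* (0.93) and *Cdkn2a* (−0.25, not called) rested on at most 110 counts in any library. *Cdkn1c* lost its call with DESeq2 (−1.01) and without DMSO replicate 3 (−0.73), and *Cdkn2b* lost it with DESeq2 (0.94) and without DMSO replicate 3 (0.61) or either treated library (0.88 and 0.98).

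The turnover genes of G1 cyclins and CDK inhibitors had 7 of 14 genes higher and 3 lower in the counts (9 and 2 under library totals), with a median of 0.19, beside 31.5% higher and 32.3% lower of all genes (6176 and 4302 of 16269 under library totals). In the replicate 1 pair 9 of the 14 were below 0, beside 5010 of all 11510, and the median was −0.10. *Cul4b*, a ubiquitin ligase scaffold, had a log2 fold change of 0.86 (standard error 0.0744). *Rnf123*, a ligase subunit for p27, had −1.10 (standard error 0.0752), and *Cks1b*, a cofactor in the degradation of p27, had −1.13 (standard error 0.126). Of the 14 lymphocyte quiescence genes 6 were higher and 5 lower (7 and 2 under library totals), with a median of 0.07, beside the same shares of all genes, and 10 of 14 were above 0 in the replicate 1 pair, beside 6500 of 11510. *Foxo3*, a forkhead factor that can drive *Cdkn1b*, had 0.65 (standard error 0.0526), *Klf4* 1.44 (standard error 0.0998) and *Tob1* 0.60 (standard error 0.0839), and all 3 were also higher in the replicate 1 pair.

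Of the 14 tested regulators upstream of the D cyclins 9 were lower and 3 higher (8 and 4 under library totals), with a median of −0.69. The shares of all genes tested were 32.3% lower and 31.5% higher (4302 and 6176 of 16269 under library totals). In the replicate 1 pair 11 of 14 of this list were above 0, with a median of 0.13. Of all genes there 6500 of 11510 were above 0, with a median of 0.08. The interleukin-2 receptor chains *Il2ra* (963 and 963 CPM with DMSO, 368 and 429.6 CPM with MAPK13-inhibitors) and *Il2rb* (1034 and 1067, then 466 and 542 CPM) fell by 1.27 and 1.06 on the log2 scale. *Il2ra* was also lower in the replicate 1 pair (384 and 237 FPKM), where *Il2rb* had 194 and 198 FPKM. *Lef1*, a partner of beta-catenin, fell by 0.91 (standard error 0.0611). *Myc*, a factor made on T cell activation, was chosen after its values were seen, and it fell from 265 and 295 CPM to 132 and 147 CPM and had 55.0 and 73.7 FPKM in the replicate 1 pair. Its part in the changes of the 10 genes was not tested.

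The genes nearest in pattern were sought for *Ccnd2* and *Cdkn1b*, by the distance between log2 CPM values centred on each gene's mean over the 4 count libraries. For *Ccnd2* the nearest of 172 genes of similar level were *Prelid1* (distance 0.0646), *Rpl36* (0.0686) and *Tap1* (0.0702). For *Cdkn1b* the nearest of 3399 were *Cpd* (0.0437), *Insig2* (0.0449) and *Map3k5* (0.0460). The replicate 1 pair was level or lower for *Prelid1* (235 and 231 FPKM), *Rpl36* (1444 and 1002) and *Tap1* (156 and 157), where *Ccnd2* was higher.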

How the data were processed

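RNA-seq of 6 libraries was used. For replicates 2 and 3 the authors deposited whole-number counts per gene. The submitters' processing notes name fastp 0.21.0, HISAT2 2.1.0, StringTie 2.1.5 and DESeq2 1.30.1 with build mm10, and FastQC and HISAT2 for the replicate 1 pair. How the counts were made, and the annotation, are not given in the sources used here. For the replicate 1 pair the deposited values were read as FPKM, normalized for length and depth by the authors; the unit was inferred from values that are not whole and sum to 405150 and 390729.

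Counts were tested with edgeR 4.0.16 (R 4.3.3) by the quasi-likelihood test after TMM scaling and filterByExpr at its defaults (minimum count 10), with Benjamini-Hochberg adjustment over 16269 genes and calls at an adjusted p-value under 0.05. The common biological coefficient of variation was 0.0659. FPKM ratios used a pseudocount of 1. The 10 genes and the lists were chosen with earlier results of these data known. All 10 genes are named, as are all genes tested in lists of up to 5 and the 3 genes with the smallest p-values in longer ones, the most abundant marker of each cell type list and markers at 0 to 3 counts, and the 3 nearest genes of *Ccnd2* and *Cdkn1b*. Some markers that this rule covers are not reported here. Overlapping genes were named from GENCODE vM21 (GRCm38), which also gave coordinates and exon lengths. An exon length counts each base in any annotated exon of the gene once, whichever transcripts the cells made. DESeq2 1.42.0 was an alternative. Figures were drawn with matplotlib 3.10.9, and the scripts were tested on simulated data.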

Additional observations from a re-analysis of the deposited data

Results flagged for a closer look

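For *Ccnd2*, *Ccnd3* and *Cdkn1a* both treated count libraries lay below both DMSO libraries while the replicate 1 pair went up. On the log2(FPKM + 1) scale the pair rose by 0.78 for *Ccnd2*, 0.16 for *Ccnd3* and 1.61 for *Cdkn1a*. Of the context genes named for their p-values, the same held for *Rb1* (0.25), *Bbc3* (0.30), *Il2rb* (0.03) and *Lef1* (0.11). Other genes named here were also lower in the counts without overlap and higher in the pair, namely *Il2* (3.36), *Mapk13* (1.84), *Cd8b1* (1.02), *Myc* (0.42), *Epor* (0.03) and, by a margin of 156 to 157 FPKM, *Tap1*. *Pax5* (−0.66) and *Map3k5* (10.8 to 9.31 FPKM) were higher in the counts without overlap and lower in the pair. These differences between the sets of libraries were not tested: the pair has 1 library per group and another library protocol, unit and table. Of all genes, 32.3% of those tested were lower in the counts and 6500 of 11510 were above 0 in the pair. The share of all genes that did both is not given here.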

How the results depend on the processing

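The calls and directions of *Ccnd1*, *Ccnd2*, *Ccne1*, *Cdk4*, *Cdk6*, *Cdkn1b* and *Cdkn2c* were kept under each of the 7 alternative fits. Their directions were also kept when single libraries were dropped. Library totals as the scaling took *Ccnd3* to −0.11 and *Ccne2* to 0.05, and upper quartile scaling took *Ccne2* to 0.00. When single libraries were dropped, *Ccne2* ranged from −0.40 to 0.18, *Cdkn1a* from −0.31 to −0.05, *Cdkn2a* from −0.59 to 0.01 (the latter without MAPK13-IN-1 replicate 3), and the difference in log2 ratio of *Cdkn2c* over *Cdk4* plus *Cdk6* from −0.17 to 0.00 (the latter without MAPK13-IN-1 replicate 2). A group left with 1 library is assumed there to vary like the other. *Cdkn1a* passed the test with no filter on low counts (−0.17). The sources used here do not say whether libraries with the same replicate number were handled together. The correlation of their deviations was −0.00641, which with 2 libraries per group cannot settle it. With the replicate block *Cdkn1a* passed (−0.18), 7 of the 10 genes were lower, and 5384 genes in all were lower and 5261 higher. With a pseudocount of 0.1 the replicate 1 pair gave 2.58 for *Ccnd1* and 2.42 for *Ccnd1* over *Ccnd3*. The cause of these shifts was not tested. DESeq2 called 4291 genes lower and 4016 higher. The depth of the replicate 1 pair is unknown, and *Ccnd1* rested on 40 and 58 counts with DMSO.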

Other observations

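*Mapk13*, the gene of the inhibited kinase, was scarce, at 3.06 and 2.72 CPM with DMSO and 0.592 and 1.51 CPM with MAPK13-inhibitors (log2 fold change −1.47, standard error 0.363, edgeR adjusted p = 0.00490), and at 0.191 and 3.28 FPKM in the replicate 1 pair. *Il2*, a T cell growth factor, was at 46.3 and 56.8 CPM with DMSO and 11.9 and 17.9 CPM with MAPK13-inhibitors (log2 fold change −1.80, standard error 0.165), and at 6.04 and 71.1 FPKM in the replicate 1 pair. Both genes were chosen after their values were seen, and their part in the changes of the 10 genes was not tested.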
